A study of Danio rerio with 6 samples.

Results

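The genes described here are 6 of the 13 protein genes carried by the mitochondrial genome. They encode the core of cytochrome c oxidase (complex IV: mt-co1, mt-co2 and mt-co3), subunits of the ATP synthase (complex V: mt-atp8 and mt-atp6) and cytochrome b of the cytochrome bc1 complex (complex III: mt-cyb). They were taken by Ensembl identifier and not by a threshold on measured values, though earlier results of these data were known. All 6 were found among the 32057 genes of the table: ENSDARG00000063905 (mt-co1), ENSDARG00000063908 (mt-co2), ENSDARG00000063912 (mt-co3), ENSDARG00000063910 (mt-atp8), ENSDARG00000063911 (mt-atp6) and ENSDARG00000063924 (mt-cyb). Their transcript levels were compared between high-Wnt and low-Wnt neural crest (NC) cells of zebrafish embryos, with 3 libraries of each, to ask how NC cells that respond strongly to canonical Wnt signals differ from those that respond little.

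Both populations came from embryos at 24 h post-fertilization (hpf) that carried the same 2 transgenes. Tg(7XTCF:nls-mCherry)ia5 is a nuclear red reporter driven by TCF binding sites. The other, given by the sample labels as Tg(-7.2sox10:EGFP)ir937, marks NC cells in green through a sox10 promoter fragment. High-Wnt cells were sorted as positive for both colours and low-Wnt cells as green without mCherry, so a cell's population rests on the reporter and on the sox10 promoter alone. The methods also list Tg(-7.2sox10:EGFP)ir937 among the lines used, but name Sox10:LynEGFP where they describe this sort. Which green transgene was used is therefore not settled here. The sources used here do not give the number of embryos or cells behind a library, nor whether libraries came from separate clutches, so the p-values below measure the spread between these libraries, which may be technical.

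The respiratory chain passes electrons to oxygen and pumps protons across the inner mitochondrial membrane, and the ATP synthase uses the returning protons to make ATP. Complexes III, IV and V are each built from subunits of both genomes, with the mitochondrially encoded ones at the catalytic or proton-conducting core and most of the others encoded in the nucleus and imported. The mitochondrial genes are transcribed as long precursors that are cut into separate mRNAs, mostly at the tRNAs between them, so neighbouring genes share a promoter but their mRNAs can differ in stability. mt-atp8 and mt-atp6 lie next to each other and their reading frames overlap on a shared mRNA, so reads over the overlap cannot be given to either gene with certainty. Nuclear copies of mitochondrial sequence can likewise draw reads from these genes, and how the quantification treated them is not given in the sources used here.

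The values are TPM, transcript abundances per unit length scaled to 1000000 per library. The methods give only an approximate common sequencing depth, and the table holds no read counts per gene, so no counting interval is given. Low-Wnt replicate 3 stood apart from the other libraries. It had 9230 genes at 1 TPM or more, against 13481 to 14417 in the other 5, and the median TPM of tested genes was 2.04 in this library and 8.29 to 9.02 in the others. It was the lowest of the 6 libraries for 9944 of the 14163 genes tested. The tests and the summed share are therefore given with and without it, and most other values library by library or with the low-Wnt mean of replicates 1 and 2. The NC markers sox10, foxd3, crestin and tfap2a, 4 of 5 listed that could be matched, were above 0 in every library. They summed to 575 to 697 TPM in high-Wnt cells and 119 to 466 TPM in low-Wnt cells. This does not test the NC label, as the cells were sorted through a sox10 promoter fragment. The matched blood and endothelial genes below were above 0 in every library too. Markers of other cell types were also present. The 4 neural markers (sox2, sox3, elavl3, neurog1) summed to 129 to 152 TPM in high-Wnt cells and 24.1 to 60.6 TPM in low-Wnt cells, and the 4 epithelial ones (epcam, cdh1, krt4, tp63) to 1033 to 1282 TPM in high-Wnt cells and 205 to 616 TPM in low-Wnt cells. The epithelial sum was mostly krt4, at 816 to 1050.3 TPM in high-Wnt cells and 52.6 to 386 TPM in low-Wnt cells, whereas epcam overlapped between the populations, at 154 to 166 TPM in high-Wnt cells and 136 to 169 TPM in low-Wnt cells. tp63 had 17.8, 20.02 and 18.8 TPM in high-Wnt cells, against 33.3, 29.6 and 5.43 TPM in low-Wnt cells, and was DE and lower without low-Wnt replicate 3 (limma adjusted p = 0.0283). In that fit krt4 and cdh1 were DE and higher in high-Wnt cells (limma adjusted p = 0.0028 and 0.0262). cdh1 had 44.7, 49.7 and 44.5 TPM in high-Wnt cells, against 25.0, 30.9 and 6.09 TPM in low-Wnt cells. The 3 matched pigment genes of 4 (tyr, dct, pmela) summed to 930.5 to 1002 TPM in high-Wnt cells and 158 to 576 TPM in low-Wnt cells, and twist1a, the matched skeletal marker of 3, had 289 to 396 TPM in high-Wnt cells and 180.1 to 336 TPM in low-Wnt cells. Without low-Wnt replicate 3, the 4 neural markers, these 3 pigment genes, twist1a, foxd3 and tfap2a were also DE and higher in high-Wnt cells, whereas sox10 and crestin were not DE. Of all tested genes, 7.17% were DE and higher in high-Wnt cells in that fit and 5.57% DE and lower. For tissues that hold many mitochondria, the cardiac myosin gene myl7, the matched marker of 4 for muscle and heart, had 45.8 to 60.4 TPM in high-Wnt cells and 60.6 to 119.5 TPM in low-Wnt cells, and the ionocyte genes foxi3a and trpv6, 2 of 3 matched, summed to 0.81 to 2.53 TPM in high-Wnt cells and 0 to 0.48 TPM in low-Wnt cells, with trpv6 listed at 0 in every library but high-Wnt replicate 1. The blood genes hbae1.1 and gata1a, 2 of 3 matched, summed to 86.8 to 183 TPM in high-Wnt cells and 109 to 206 TPM in low-Wnt cells, and the endothelial genes kdrl and cdh5, 2 of 3 matched, to 1.44 to 1.78 TPM in high-Wnt cells and 0.10 to 1.51 TPM in low-Wnt cells. The part of these cell types in the results below was not tested. In bulk libraries, fewer cells of a type and less RNA per cell cannot be told apart.

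All 6 genes were lower in high-Wnt than in low-Wnt cells on average, with mean TPM in high-Wnt cells between 0.371 (mt-cyb) and 0.583 (mt-atp8) of that in low-Wnt cells. For 5 of the 6 (all but mt-co1), every high-Wnt library lay below every low-Wnt library, whereas 5.57% of the 14163 tested genes showed that pattern and 22.4% the opposite one. mt-co1 overlapped through low-Wnt replicate 3 alone. Without that library all 6 were separated, beside 22.6% of the 15000 genes tested there (25.1% the opposite way).

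In complex IV, mt-co1 encodes the subunit that reduces oxygen at its haem and copper centre, mt-co2 the subunit that takes electrons from cytochrome c, and mt-co3 a structural subunit of the core. mt-co1 had 2982, 2432 and 2235 TPM in high-Wnt replicates 1 to 3, against 9023, 5612 and 1966 TPM in low-Wnt replicates 1 to 3. Low-Wnt replicates 1 and 2 thus lay well above the high-Wnt libraries, whereas low-Wnt replicate 3 lay below all of them, which gave means of 2549.5 ± 387 TPM in high-Wnt cells and 5533 ± 3529 TPM in low-Wnt cells (SD, n = 3 each). mt-co2, the most abundant of the 6 in every library, had 5213, 5220.1 and 4990.1 TPM in high-Wnt cells, against 12757, 8065 and 16351 TPM in low-Wnt cells. The high-Wnt libraries differed little among themselves, and the groups were separated by 2845 TPM between their nearest libraries. mt-co3 had 4049.8, 3157 and 3170.1 TPM in high-Wnt cells, against 7789, 5367 and 10693 TPM in low-Wnt cells. Here, as for mt-co2, low-Wnt replicate 3 was the highest of the 6 libraries, the reverse of its place for mt-co1.

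In complex V, mt-atp6 encodes subunit a, which forms the proton path beside the turning ring, and mt-atp8 a small subunit of the membrane part. mt-atp6 had 1443, 1449 and 1488 TPM in high-Wnt cells, against 3636, 2307 and 3469 TPM in low-Wnt cells. The 3 high-Wnt values were the closest together of any of the 6 genes, with an SD of 1.66% of the mean, and the groups did not overlap. mt-atp8 had 1248, 1335 and 1401 TPM in high-Wnt cells, against 2811, 1528 and 2499.5 TPM in low-Wnt cells. The groups were apart here too, but by only 127 TPM, the smallest gap of the 5 separated genes, because low-Wnt replicate 2 lay close to the high-Wnt libraries.

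In complex III, mt-cyb encodes cytochrome b, which carries electrons from ubiquinol across the membrane and is the only subunit of this complex made in the mitochondrion. It had 1573, 1363 and 1287 TPM in high-Wnt cells, against 4517, 3089 and 3781 TPM in low-Wnt cells. The means were 1408 ± 148 TPM in high-Wnt cells and 3795 ± 714 TPM in low-Wnt cells (SD, n = 3 each). The lowest low-Wnt library exceeded the highest high-Wnt library by 1515 TPM, and the relative spread among low-Wnt libraries was the smallest of the 6 genes, with an SD of 18.8% of the mean against 23.1% to 63.8% for the others.

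**Figure D1:**
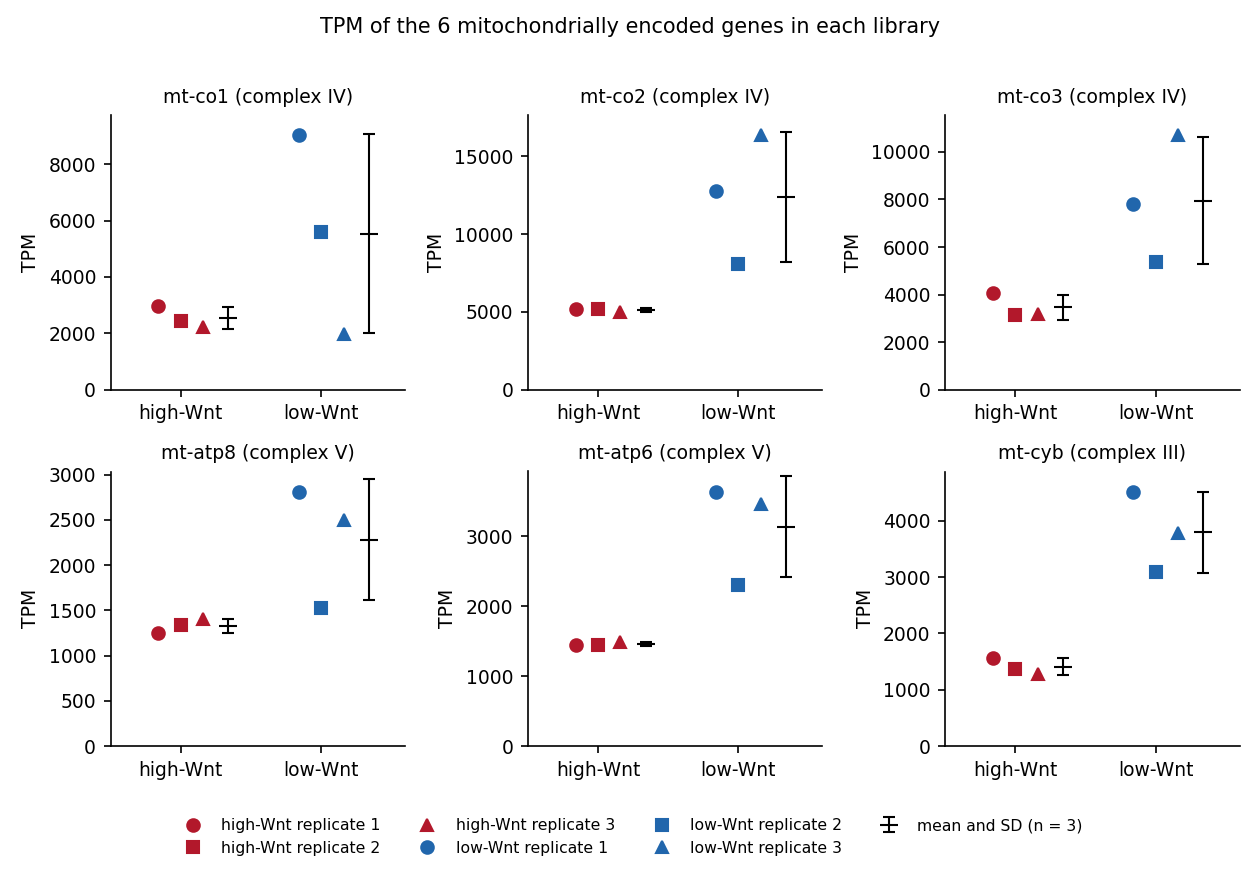
TPM (linear axis) of each gene in each high-Wnt (red, left) and low-Wnt (blue, right) library, with circles, squares and triangles for replicates 1, 2 and 3 and black bars for the mean and SD of 3 libraries. The red points lie below the blue points in every panel except mt-co1, where low-Wnt replicate 3 at 1966 TPM lies below all high-Wnt libraries.

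The genes were tested on log2(TPM + 1) with limma across all genes, and a gene was called differentially expressed (DE) at a Benjamini-Hochberg adjusted p under 0.05. With all 6 libraries, 1 of the 6 genes was DE, beside 0.367% of all tested genes (0.106% lower and 0.261% higher in high-Wnt cells). This was mt-cyb, with a log2 fold change of -1.42 (standard error 0.20, limma adjusted p = 0.0424). The call was lost when any library other than low-Wnt replicate 3 was left out, with limma adjusted p from 0.0853 to 0.279. In those fits no gene of the whole table was DE. The mt-cyb call was also lost with a pseudocount of 0.1, another filter on low values, median centring or no variance trend (limma adjusted p from 0.0571 to 0.235). With these settings, 0.0171% to 0.325% of all tested genes were DE. In the fit without these changes, the rest of the 6 genes lay between -1.21 and -0.73. Their limma adjusted p was 0.0738 for mt-atp6 (-1.07), 0.0751 for mt-co2 (-1.21), 0.102 for mt-co3 (-1.15), 0.242 for mt-atp8 (-0.73) and 0.451 for mt-co1 (-0.87). At an unadjusted limma p under 0.05, 5 of the 6 were lower, beside 2.49% of the tested genes.

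Without low-Wnt replicate 3, 5 of the 6 genes were DE and lower in high-Wnt cells, beside 12.7% of the 15000 genes tested (5.57% lower and 7.17% higher in high-Wnt cells). At an unadjusted limma p under 0.05 all 6 were lower, beside 14.3% of the tested genes. mt-co1 changed most and had a log2 fold change of -1.49 (standard error 0.22, limma adjusted p = 0.00775), followed by mt-cyb at -1.41 (standard error 0.19, limma adjusted p = 0.00462). mt-atp6 had -0.99 (limma adjusted p = 0.0181), mt-co2 -0.98 (0.0227) and mt-co3 -0.91 (0.0266), so these 3 fell by like amounts. mt-atp8 did not pass, at -0.64 (standard error 0.24, limma adjusted p = 0.108). The fit rests on 2 low-Wnt libraries, and of these replicate 1 was above replicate 2 for all 6 genes, by 1.45 times for mt-co3 to 1.84 times for mt-atp8.

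With low-Wnt replicate 3 included, these changes stand against a shift of the whole table, which was small without that library. Over all tested genes the log2 fold change had a median of 0.51 with 6 libraries, against a median of -1.11 over the 6 genes, and 0.05 without low-Wnt replicate 3, against -0.98 over the 6 genes. After quantile normalization of the 6 libraries the median of all genes was 0.02, the 6 genes lay between -1.48 and -0.83, and 3 of them were DE (mt-cyb, mt-co3 and mt-atp6), beside 1.25% of all tested genes. No alternative setting turned the direction of any of the 6 genes.

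**Figure D2:**
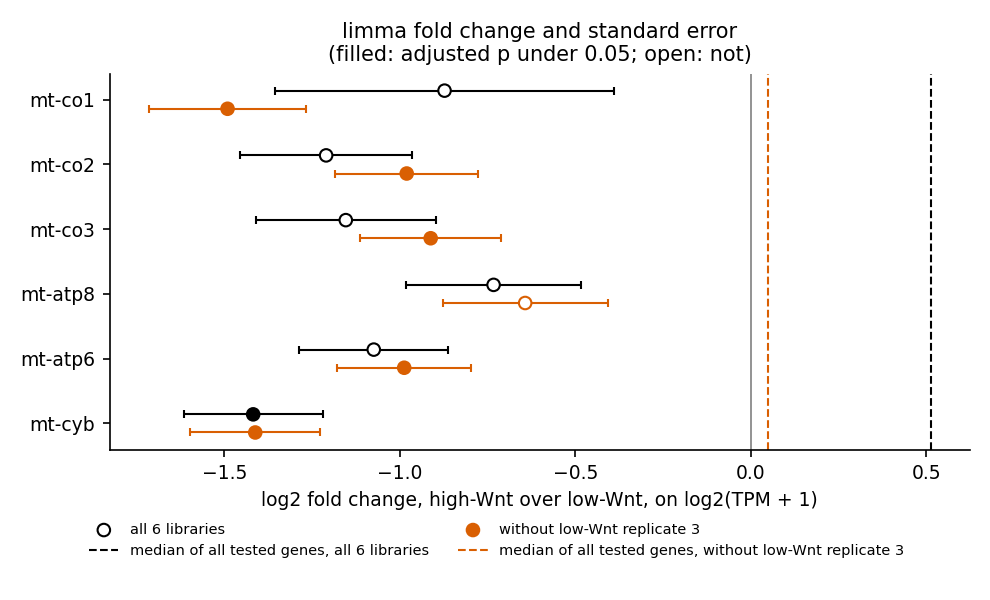
Log2 fold change of high-Wnt over low-Wnt cells on log2(TPM + 1) for each gene, with the limma standard error, from all 6 libraries (black, upper) and without low-Wnt replicate 3 (orange, lower). Filled points passed an adjusted p of 0.05 and dashed lines give the median of all tested genes, 0.51 and 0.05. All 12 points lie below 0, and leaving out that library moves mt-co1 from -0.87 to -1.49 but mt-cyb only from -1.42 to -1.41.

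Summed over the 6 genes, the share of library TPM was 1.65%, 1.50% and 1.46% in high-Wnt replicates 1 to 3 and 4.05%, 2.60% and 3.88% in low-Wnt replicates 1 to 3. Every low-Wnt library was thus above every high-Wnt library, with means of 1.53 ± 0.10% in high-Wnt cells against 3.51 ± 0.80% in low-Wnt cells (SD, n = 3 each). The difference, high-Wnt minus low-Wnt, was -1.97 percentage points with all libraries and -1.79 without low-Wnt replicate 3. Unlike mt-co1 by itself, the sum did not set low-Wnt replicate 3 apart, since its high mt-co2 and mt-co3 made up for its low mt-co1. The complex IV genes made up most of the sum, with 1.11 ± 0.10% of TPM in high-Wnt cells against 2.59 ± 0.59% in low-Wnt cells. The complex V pair held 0.279 ± 0.010% in high-Wnt cells against 0.542 ± 0.139% in low-Wnt cells (SD, n = 3 each for both complexes). Without low-Wnt replicate 3 the low-Wnt means were 2.43% for complex IV and 0.514% for complex V.

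**Figure D3:**
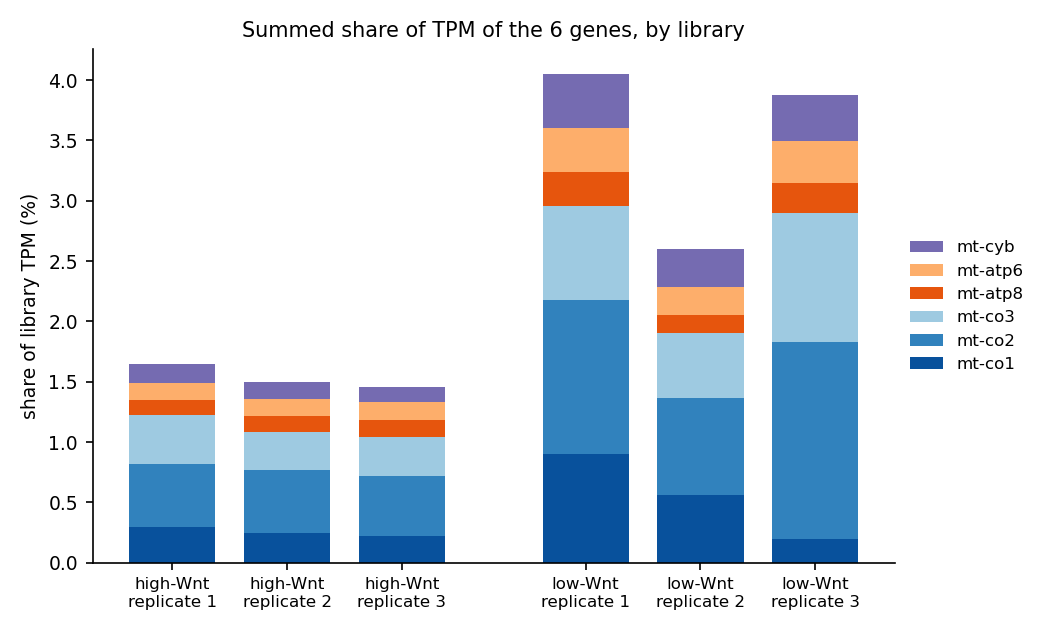
Share of library TPM (%) held by the 6 genes in the 3 high-Wnt (left) and 3 low-Wnt (right) libraries, stacked by gene from mt-co1 at the bottom to mt-cyb at the top. The high-Wnt columns reach 1.46% to 1.65% and the low-Wnt columns 2.60% to 4.05%, with a thin mt-co1 part in low-Wnt replicate 3.

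As TPM are per length, the genes can also be ranked against each other. In each high-Wnt library the order was mt-co2, mt-co3 and then mt-co1. mt-atp6, mt-cyb and mt-atp8 followed there, at 1460.1 ± 24.2, 1408 ± 148 and 1328 ± 76.7 TPM (SD, n = 3). The range of mt-cyb overlapped those of both others, whereas mt-atp6 lay above mt-atp8 in every high-Wnt library and their ranges did not overlap. In low-Wnt replicates 1 and 2, mt-co1 stood next to mt-co2, above mt-co3, and mt-cyb stood above mt-atp6 and mt-atp8. In low-Wnt replicate 3, mt-co1 was the lowest of the 6. Among all genes of a library, mt-co2 was placed 19th to 24th in high-Wnt cells and 2nd to 6th in low-Wnt cells, and mt-cyb 118th to 130th in high-Wnt cells and 21st to 58th in low-Wnt cells.

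The balance within the 6 genes does not depend on how libraries are scaled. mt-atp8 held 7.56%, 8.93% and 9.62% of the summed TPM of the 6 genes in high-Wnt replicates 1 to 3 and 6.94%, 5.89% and 6.45% in low-Wnt replicates 1 to 3, a larger part in every high-Wnt library. mt-cyb went the other way, with 9.53%, 9.12% and 8.83% in high-Wnt cells and 11.1%, 11.9% and 9.76% in low-Wnt cells. Of the 6 shares tested, these gave p = 0.1 in a two-sided exact permutation test, the smallest that 3 libraries against 3 allow, so none could pass 0.05. The shares of mt-co1, mt-co2, mt-co3 and mt-atp6 overlapped between the populations (exact permutation p = 1, 1, 1 and 0.4). For the complex IV genes that overlap rested on low-Wnt replicate 3. Without it the share of mt-co1 was lower in every high-Wnt library, and the difference in its mean share, high-Wnt minus low-Wnt, was -5.38 percentage points, against 0.24 with all libraries. The shares of mt-co2 and mt-co3 were then higher in every high-Wnt library. Their mean shares differed by 2.31 and 2.52 points, against -1.33 and -0.03 with all libraries. For mt-co2 the nearest libraries lay close together, at 31.58% in high-Wnt replicate 1 and 31.47% in low-Wnt replicate 1. As the shares make up a whole, a lower share of mt-co1 by itself raises the others. mt-atp8 and mt-cyb stayed apart without it, mt-atp6 still overlapped (exact permutation p = 0.6), and the other 5 shares gave p = 0.2, the smallest that an exact permutation of 3 libraries against 2 allows.

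mt-atp8 and mt-atp6 are read from the same mRNA, yet their TPM ratio was 0.865, 0.921 and 0.942 in high-Wnt cells and 0.773, 0.662 and 0.721 in low-Wnt cells. The ratio was thus higher in all high-Wnt libraries, and the overlap of the reading frames limits how far the genes can be told apart. mt-co1, which has the longest coding sequence of the 6, held 18.1%, 16.3% and 15.3% of the sum in high-Wnt cells, against 22.3%, 21.6% and 5.07% in low-Wnt cells. Low-Wnt replicates 1 and 2 were above and replicate 3 far below the high-Wnt range. The ratio of mt-co1 to mt-co2 was 0.448 to 0.572 in high-Wnt cells, against 0.707, 0.696 and 0.120 in the 3 low-Wnt libraries. By contrast, mt-co3 kept to 0.605 to 0.777 of mt-co2 in high-Wnt cells and 0.611 to 0.665 in low-Wnt cells, ranges that overlap.

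The other 7 mitochondrial protein genes encode complex I, the NADH dehydrogenase. None was DE with all 6 libraries by limma, and 3 of the 7 were lower at an unadjusted limma p under 0.05, beside 2.49% of all tested genes. The median log2 fold change of the 7 was -0.66. Without low-Wnt replicate 3, 3 were DE and lower in high-Wnt cells, beside 5.57% of all tested genes: mt-nd5 (-1.23, limma adjusted p = 0.0098), mt-nd6 (-1.14) and mt-nd2 (-0.67). All 7 were lower in that fit at an unadjusted limma p under 0.05, as were the 6 genes above, beside 14.3% of all tested genes. Their median log2 fold change was then -0.68. mt-nd5 had 249, 240 and 241 TPM in high-Wnt cells, against 738, 446 and 111 TPM in low-Wnt cells. Low-Wnt replicate 3 was thus the lowest library for mt-nd5, as for mt-co1, and it was also the lowest for mt-nd4 and mt-nd4l, at 157 and 74.9 TPM. Its place is not particular to these genes, as it was the lowest library for 9944 of the 14163 genes tested. Relative to complex I, the summed TPM of the 6 genes was 5.56, 6.11 and 5.92 times as high in high-Wnt cells and 7.65, 7.15 and 10.5 times as high in low-Wnt cells, with no overlap. All 13 protein genes together held 1.80 ± 0.13% of TPM in high-Wnt cells against 3.93 ± 0.86% in low-Wnt cells (SD, n = 3 each), where the mean without replicate 3 was 3.77%.

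The nuclear partners of the same complexes were tested in the same fits, and whether they differ from the mitochondrial genes was not tested. With all 6 libraries, none of the 11 tested nuclear complex IV genes, the 8 of complex III or the 14 of complex V was DE by limma, and at an unadjusted limma p under 0.05, 1, 1 and 5 of them were lower and none higher, beside 2.49% of all tested genes lower. Without low-Wnt replicate 3, 1, 3 and 6 were lower at that unadjusted limma p and 1, 0 and 1 higher, beside 14.3% of all tested genes lower. By limma adjusted p in that fit, 0, 1 and 3 were DE and lower, and 1, 0 and 0 DE and higher. Of all tested genes, 5.57% were DE and lower there and 7.17% DE and higher. Without low-Wnt replicate 3, no nuclear complex IV gene was DE and lower, although cox5aa, at 515, 391 and 419 TPM in high-Wnt cells against 614 and 581 TPM in the 2 low-Wnt libraries, had a log2 fold change of -0.44 (limma adjusted p = 0.0822). cox6b1, a subunit of the outer face of the oxidase, rose in high-Wnt cells in the same fit, with a log2 fold change of 1.29 (limma adjusted p = 0.042). It had 26.6, 37.4 and 34.7 TPM in high-Wnt cells, against 19.8, 8.08 and 49.5 TPM in low-Wnt cells, so low-Wnt replicate 3 was the highest library for it. The far more abundant cox6b2 of the same list was not DE in this fit, at -0.19 (limma adjusted p = 0.353). cox6b2 had 1229, 1104 and 1112 TPM in high-Wnt cells, against 1214, 1411 and 2128 TPM in low-Wnt cells. In that fit uqcrh, the hinge protein of complex III, fell (-0.70, limma adjusted p = 0.033). For complex V, atp5f1c (the central stalk, -0.75), atp5po (the peripheral stalk, -0.89) and atp5if1b (an inhibitor of ATP hydrolysis, -0.86) fell, with limma adjusted p of 0.027, 0.015 and 0.029. The medians were 0.12 for complex IV, -0.16 for complex III and -0.23 for complex V, beside 0.05 for all tested genes.

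The nuclear sums hold 13 matched genes of 18 listed for complex IV, 8 of 10 for complex III and 14 of 17 for complex V. Genes without a match are missing from them. Set against the 13 matched nuclear genes of complex IV, the summed TPM of mt-co1, mt-co2 and mt-co3 was 1.75, 1.58 and 1.46 times as high in high-Wnt cells and 4.51, 2.60 and 2.48 times as high in low-Wnt cells. The nuclear sum itself was 0.699%, 0.685% and 0.714% of TPM in high-Wnt cells, against 0.655%, 0.732% and 1.17% in low-Wnt cells. Low-Wnt replicates 1 and 2 thus lay just below and just above the high-Wnt range, and replicate 3 well above it. The nuclear sums of complexes III and V, by contrast, were lower in every high-Wnt library. For complex III the sum was 0.231%, 0.223% and 0.217% in high-Wnt cells, against 0.252%, 0.278% and 0.357% in low-Wnt cells. For complex V it was 0.891%, 0.804% and 0.816% in high-Wnt cells, against 1.03%, 1.095% and 1.50% in low-Wnt cells. For complex III, mt-cyb was 0.682, 0.611 and 0.593 times the sum of the 8 matched nuclear genes in high-Wnt cells and 1.79, 1.11 and 1.06 times in low-Wnt cells. These ratios were without overlap for complexes IV and III. For complex V they overlapped, at 0.302, 0.346 and 0.354 in high-Wnt cells and 0.628, 0.350 and 0.398 in low-Wnt cells.

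**Figure D4:**
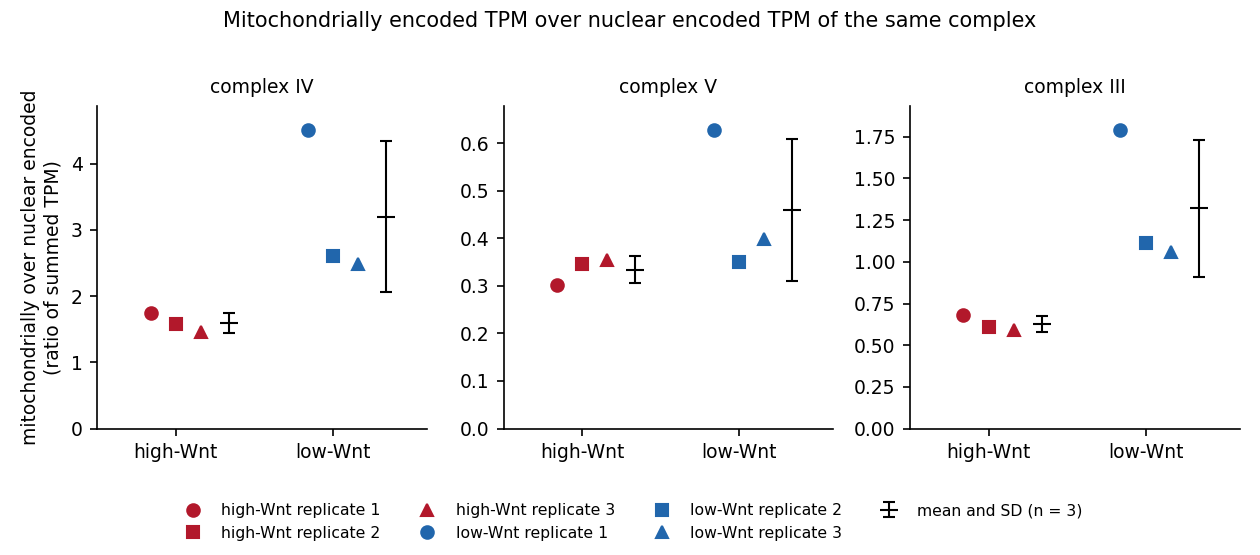
Ratio (linear axis) of the summed TPM of the mitochondrially encoded genes to that of the matched nuclear encoded genes of complexes IV, V and III in each high-Wnt (red, left) and low-Wnt (blue, right) library, with black bars for the mean and SD of 3 libraries. The groups are apart for complexes IV and III and overlap for complex V, where low-Wnt replicate 2 at 0.350 lies just under high-Wnt replicate 3 at 0.354.

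The 14 matched genes of mitochondrial transcription and RNA handling summed to 430.5 to 441 TPM in high-Wnt cells and 537 to 547 TPM in low-Wnt cells. slirp, an RNA-binding partner of lrpprc, made up much of this sum, at 223, 218 and 234 TPM in high-Wnt cells, against 287, 297 and 412 TPM in low-Wnt cells. The sum does not stand for the list, as 3 of the 14 genes had a negative log2 fold change with 6 libraries and 7 without low-Wnt replicate 3, with medians of 0.28 and -0.05. Of these 14, all tested, none was DE by limma with 6 libraries, and none had an unadjusted limma p under 0.05. tfam, which packages and helps transcribe mitochondrial DNA, had 66.7, 82.2 and 80.4 TPM in high-Wnt cells and 79.5, 94.7 and 72.1 TPM in low-Wnt cells, so the groups overlapped. polrmt, the mitochondrial RNA polymerase, had 6.07, 5.56 and 4.33 TPM in high-Wnt cells, against 4.08, 3.51 and 2.64 TPM in low-Wnt cells. All high-Wnt libraries were above, a pattern that 22.4% of all tested genes showed, and polrmt was not DE (limma adjusted p = 0.572). Without low-Wnt replicate 3, 1 of the 14 genes was DE and lower in high-Wnt cells, beside 5.57% of all tested genes. This was twnk, the mitochondrial DNA helicase, at a log2 fold change of -1.01 (limma adjusted p = 0.022). It had 9.87, 11.1 and 9.80 TPM in high-Wnt cells, against 25.9, 18.1 and 0.94 TPM in low-Wnt cells, where replicate 3 lay below every other library.

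Among 1171 other genes with a mean TPM of at least 100, the pattern most like the summed level of the 6 genes over the 6 libraries was that of tppp, which encodes a tubulin polymerization promoting protein (Pearson r = 0.990), followed by gapdhs, a glyceraldehyde-3-phosphate dehydrogenase of glycolysis (r = 0.987). tppp had 149, 157 and 143 TPM in high-Wnt cells and 623, 341 and 742 TPM in low-Wnt cells. The complex I genes were spread over this order, from mt-nd2 at 4th (r = 0.979) to mt-nd4l at 573rd (r = -0.04), with mt-nd5 489th (r = 0.196). Over the 5 libraries without low-Wnt replicate 3, mt-nd5 came first (r = 0.997) and naa10, the catalytic subunit of an N-terminal acetyltransferase, second (r = 0.996). The complex I gene placed lowest there was mt-nd1, at 198th (r = 0.853). These correlations are over few libraries that share the contrast between the populations, and are given as a description.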

How the data were processed

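RNA of FACS-sorted high-Wnt and low-Wnt NC cells (3 libraries each, 24 hpf) was made into Smart-seq2 libraries, which do not mark strand. After alignment by STAR to GRCz11, the authors obtained gene abundances from RSEM, and the deposited unit is TPM. Their own test was a count model. TPM are not counts, so limma 3.58.1 (R 4.3.3) was fitted to log2(TPM + 1) of the whole table, on population only, with an intensity trend. On this scale the fold changes of low genes come out too small. Genes with at least 1 TPM in at least 3 libraries (2 where a library was left out) were tested, and p-values were adjusted by Benjamini-Hochberg over all of them. All 6 genes passed. Tables and plots used Python 3.11.15, pandas 2.3.3, scipy 1.17.1 and matplotlib 3.10.9, and the fit was tested on simulated data. The gene table named 28988 of 32057 identifiers, and list symbols were matched in lower case or, failing that, in capitals, and are written in lower case. Listed genes without a match were not analysed here.

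The 6 genes, the gene lists and the markers were chosen with earlier results of these data known, and the ratios between genes after their values were seen. All 6 genes are named. The other named genes are list genes past the threshold (at most 4 a list), the 2 most correlated with the summed TPM, and some chosen after their values were seen. The latter are tfam, polrmt, slirp, cox5aa, cox6b2, mt-nd4 and mt-nd4l. The places of mt-nd1, mt-nd2, mt-nd4l and mt-nd5 in the correlation order were also chosen after their values were seen. The alternatives were another pseudocount (0.1), no filter or a stricter one (mean TPM of 5 or more), median centring, quantile normalization, TPM rescaled without the 6 genes, no variance trend, sample quality weights, a replicate block, and each library left out.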

Additional observations from a re-analysis of the deposited data

How the results depend on the processing

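All 6 genes kept a negative log2 fold change under all 20 alternative settings, from -2.01 to -0.36. The number that were DE by limma depended on the setting, from the 1 found with all 6 libraries. It was 0 with a pseudocount of 0.1, with no filter on low values, with a mean TPM of at least 5 and with median centring (5 of 6 at an unadjusted p under 0.05 in each), and 0 with no variance trend (4 of 6 unadjusted). In that order, 0.12%, 0.0171%, 0.15%, 0.325% and 0.0918% of all tested genes were DE. The number was 3 with quantile normalization, where 1.25% of all tested genes were DE. It was 5 (all but mt-atp8) with sample quality weights, where 29.1% were. Those weights were 0.037 for low-Wnt replicate 3 and 0.53 to 4.97 for the other libraries, so that library counted little there. The number stayed at 1 with TPM rescaled without the 6 genes, beside 0.366% of all tested genes. With each library left out the number ranged from 0 to 5. It was 0 in the 5 fits that kept low-Wnt replicate 3 (4 or 5 of 6 unadjusted), where no gene of the whole table was DE. Without that library it was 5, beside 12.7% of all tested genes. That 5 held with quantile normalization, median centring, a pseudocount of 0.1 and, chosen after seeing the data, rescaling without the 6 genes. The share of all tested genes that were DE was then 12.3%, 14.3%, 11.2% and 13.3%, in that order. The cause was not tested.

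The replicate block gave 4 DE genes (mt-co2, mt-co3, mt-atp6 and mt-cyb) with 6 libraries, beside 1.19% of all tested genes, and 2 (mt-co1 and mt-cyb) without low-Wnt replicate 3, beside 3.26%. Whether libraries of the same number belong together is not given in the sources used here. Deviations of same-numbered libraries from the mean of their population correlated at 0.03, -0.01 and 0.14, the last being the highest of all pairings. High-Wnt replicates 1 and 2 each correlated better with a low-Wnt library of another number, at 0.09 and 0.06. With only 3 libraries behind each mean, and low-Wnt replicate 3 apart from the others, these correlations cannot decide whether the numbers mark pairs.

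The summed share differed by -1.97 percentage points, by -2.43 to -1.70 with each library left out, and by -3.83 when the 100 most abundant other genes were left out of the total, which makes the total smaller by construction. mt-atp8 passed the threshold under none of the 20 settings (limma adjusted p from 0.0774 to 0.713). The table holds no read counts, so the part of counting error in the spread was not estimated.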
